A study of Mus musculus with 35 samples.

Results

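The genes described here are 288 genes whose transcripts were lower in sorted cortical astrocytes 24 h after lipopolysaccharide (LPS) than after saline, out of 19573 genes measured. They were chosen from the 24 h libraries of both sexes: the mean of log2(FPKM + 1) over 9 LPS libraries had to lie at least 0.7 below the mean over 10 saline libraries, and the mean saline FPKM had to be at least 3. FPKM counts fragments mapped to a gene relative to its transcript length and to all fragments mapped in that library. Of 11678 genes at that saline level, 512 passed, and 224 of them were left out by name, 158 for RP2 clone names, 32 for Gm names and 27 as mitochondrial genes among them. Because the 24 h libraries chose the genes, every 24 h difference between LPS and saline below is a description without a test. The libraries of 3 h and 72 h, and the comparisons between the sexes, were not used by the choice and were tested.

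Astrocytes were sorted by their green fluorescence from the cortex of Aldh1l1egfp mice, which carry eGFP under the control of the astrocyte gene Aldh1l1, at postnatal days 30 to 35. Mice of all groups carried this reporter and received either 5 mg/kg LPS, a bacterial cell wall component that causes systemic inflammation, or saline. At 3 h there were 4 saline and 5 LPS libraries of females, at 72 h 4 saline and 3 LPS libraries of females, and at 24 h 5 saline and 4 LPS libraries of females beside 5 saline and 5 LPS libraries of males. Nothing in the labels ties a library to 1 mouse, so the p-values measure only the spread between libraries, which may be technical. In bulk RNA, fewer cells of a type and less RNA per cell cannot be told apart.

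Astrocytes supply neurons and vessels with lipids, thyroid hormone, growth factors and matrix proteins. They make cholesterol through the mevalonate pathway, and they take up the thyroid prohormone T4 and convert it to active T3. LPS given systemically is known to move astrocytes into a reactive state, in which many genes are induced.

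The sorted cells carried their label: 15 astrocyte marker genes summed to between 7297 and 13908 FPKM in the saline libraries at 24 h and to between 9689 and 16292 FPKM in the LPS libraries, and none of these markers was among the 288 genes. Markers of other cells were present at lower sums. In the 24 h saline and LPS libraries, respectively, 19 microglial markers summed to medians of 147.7 and 292.5 FPKM, 15 endothelial markers to 126.2 and 195.5, 12 oligodendrocyte markers to 424.8 and 632.8, and 8 ependymal markers to 26.2 and 67.9. The medians of these marker sums were higher in the LPS libraries at 24 h, but a sum rests mostly on its most abundant genes. Gene by gene, the median 24 h difference (log2) was 0.36 for microglial, 0.31 for endothelial, 0.53 for ependymal and -0.13 for oligodendrocyte markers. All 5 border macrophage markers tested were lower, by a median of 0.32, at low median sums of 3.3 and 3.7 FPKM. The part of other cells in the results below was not tested. Sequencing depth in reads is not given in the sources used here. Between 14508 and 16942 genes reached 1 FPKM in a library.

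The libraries also differed in a way that moved with the 288 genes, and the results below are to be read beside this. Its part in them was not tested beyond the values given. Mitochondrially encoded genes made up 4.86% to 24.4% of a library's summed FPKM. Their share was 8.88% to 24.4% in the 24 h saline libraries and 4.86% to 17.3% in the 24 h LPS libraries. It was under 10% in 10 of the 35 libraries: 5 LPS and 1 saline library at 24 h, LPS replicates 4 and 5 at 3 h, and saline replicates 3 and 4 at 72 h. The mean log2(FPKM + 1) of the protein-coding genes of lowest G + C content minus that of the highest (quartiles) was -0.95 to -0.28 in these 10 libraries and -0.58 to 0.78 in the other 25. Among protein-coding genes outside the 288, the median 24 h difference was -0.25 (log2) in the quartile of lowest G + C content, below 45.3%, and 0.38 in that of highest, above 54.9%. The 288 genes had a median transcript G + C content of 40.9%, against 50.1% for those other genes, and 225 of the 288 lay below 45.3%. Values are therefore given also without the 10 libraries and after scaling each library within 20 bins of G + C content, both of which were chosen after the data were seen.

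**Figure D1:**
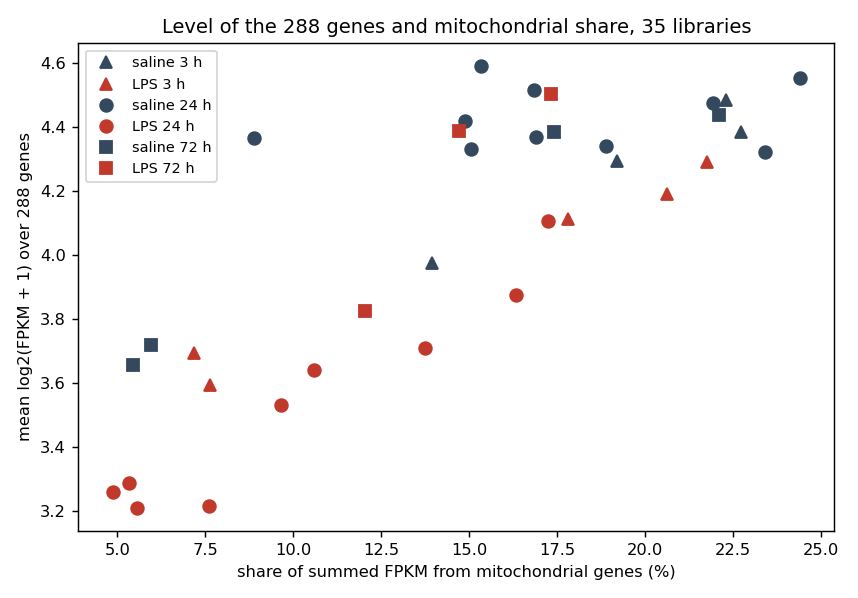
Mean log2(FPKM + 1) over the 288 genes (vertical axis) against the mitochondrial share of summed FPKM in percent (horizontal axis), 1 point per library, with saline in dark blue, LPS in red and the times as shapes. The 24 h saline libraries lie between 4.32 and 4.59 at mitochondrial shares from 8.88% to 24.4%, while saline libraries at 72 h with shares of 5.43% and 5.96% lie at 3.66 and 3.72.

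At 24 h the mean log2(FPKM + 1) over the 288 genes was lowest at 3.21, at a median of 3.53 and highest at 4.11 in the LPS libraries, and 4.32, 4.39 and 4.59 in the saline libraries, so the groups did not overlap. The median difference was -0.80 in females, where 284 of 288 genes were lower, and -0.91 in males, where all 288 were lower. Over all 19426 genes tested the medians were 0.05 and 0.18. Single genes overlapped more: in 11 of the 288 every LPS library lay below every saline library, where 0.113% of all genes tested did so in that direction. Among these were Dclk1, Srsf3, Apln, Fam13c, Slco1c1, Gas1, Dio2, Hmgcs1, Abcd2 and Emx2os, and since the choice used these libraries nothing is read from the count. Emx2os is antisense to Emx2, and whether the counting used strand is not given in the sources used here. After scaling within G + C bins, with the shift of each bin set by genes outside the 288, all 288 genes were lower, by a median of 0.61. At least 0.7 lower were 114 of them. With 4 LPS and 9 saline libraries of at least 10% mitochondrial share, 286 were lower and 77 passed the same threshold. There were 63 genes that passed it both ways. Since these same libraries chose the genes, nothing is read from how many of the 288 were lower in either way. The part of the mitochondrial share and of G + C content in the 24 h differences was not tested beyond these values.

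**Figure D2:**
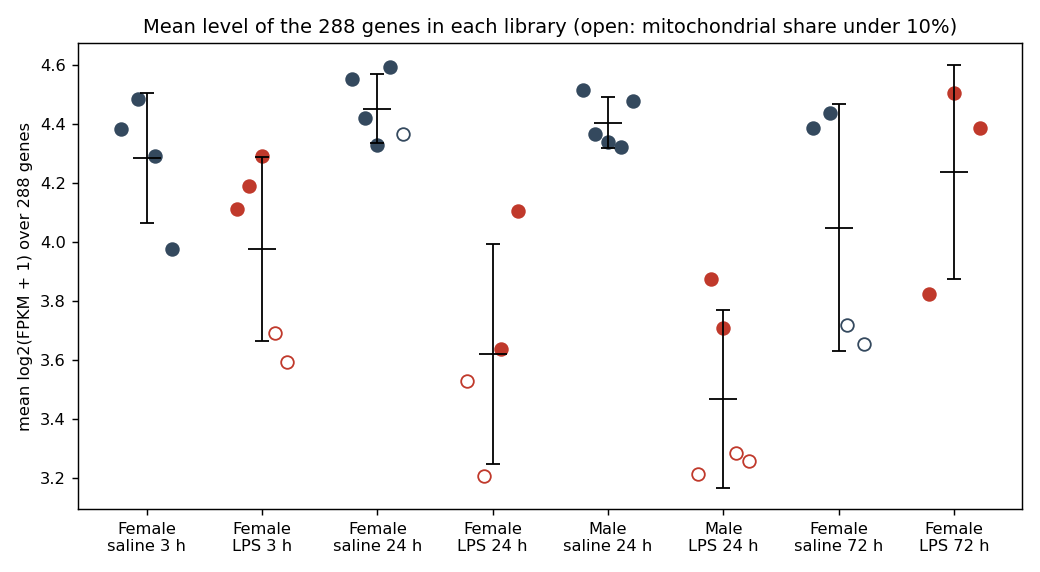
Mean log2(FPKM + 1) over the 288 genes in each library, by group, with the group mean and SD as bars; open points are libraries with a mitochondrial share under 10%. At 24 h the LPS libraries, at 3.21 to 4.11, lie below the saline libraries at 4.32 to 4.59, and the 2 open saline points at 72 h lie at 3.66 and 3.72.

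Just inside the threshold lay Katnbl1 at a difference of -0.702 and Malat1 and Hnrnpdl at -0.701, and just outside lay Srsf11 and Ptpn12 at -0.695 and Epha4 at -0.694. The mean saline level of the 288 genes ran from 3.02 to 4901 FPKM with a median of 16.99, and 65 of them were at least 1 log2 unit lower. The highest belonged to Malat1, a nuclear long non-coding RNA, whose FPKM varied widely within groups, from 447 to 8029 in the 24 h saline libraries and from 257 to 5471 in the LPS libraries. Next came Yam1, whose values ran from 0.336 to 4157 FPKM among the 24 h saline libraries and from 0.225 to 4948 FPKM after LPS, so that its difference of -1.27 describes no shift shared by the libraries. Gpm6a, a neuronal and glial membrane glycoprotein, and Ptn, the growth factor pleiotrophin, followed.

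Secreted and matrix proteins made up 14 of the 288 genes, a grouping made after the values were seen. Tnc encodes tenascin C, an extracellular matrix glycoprotein of developing and injured tissue (chromosome 4, 63959785 to 64047015, mm10). Its level at 24 h was lowest at 6.6, at a median of 9.62 and highest at 12.4 FPKM in saline libraries, and 1.48, 2.42 and 10.1 FPKM after LPS. The 4 female LPS libraries were all below every saline library, at 1.48 to 2.68 FPKM, while male LPS replicate 3 at 10.1 FPKM lay within the saline range. At 3 h Tnc was at 6.17, 8.19, 6.06 and 12 FPKM in saline and 8.11, 5.57, 5.26, 10.2 and 8.19 FPKM in LPS libraries, which overlapped throughout (log2 fold change -0.09 ± 0.27 SE, limma adjusted p = 0.921). Apln, the peptide ligand apelin, was at 21, 30.6 and 46.3 FPKM (lowest, median, highest) in saline and 5.33, 12.9 and 17.6 FPKM in LPS libraries at 24 h, without overlap. Vegfa, the vascular growth factor, was at 66.6, 145 and 208 FPKM in saline and 46.6, 76.4 and 87.3 FPKM after LPS, with a slight overlap. The hyaluronan link protein Hapln1 and the FGF-binding protein Fgfbp3 were lower by 1.21 and 1.20 (log2). In this group the median difference at 24 h was -0.93, and it was -1.18 after scaling within G + C bins, where 13 of 14 genes stayed at least 0.7 lower. Their median transcript G + C content, 51.5%, was the highest of the role groups described. Protein-coding genes outside the 288 with 50.1% to 54.9% G + C had a median 24 h difference of 0.27, so the scaling lowers such genes. Since these libraries also chose the genes, nothing is read from the 13 of 14. At 3 h and 72 h none of the 14 passed the limma test, and their median log2 fold changes were -0.21 and 0.01.

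The matrix list fixed for this work held 31 tested genes, of which Tnc and Hapln1 were among the 288. The 24 h median of its other genes was 0.25, and at 3 h none of the 31 was lower and 3 were higher.

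**Figure D3:**
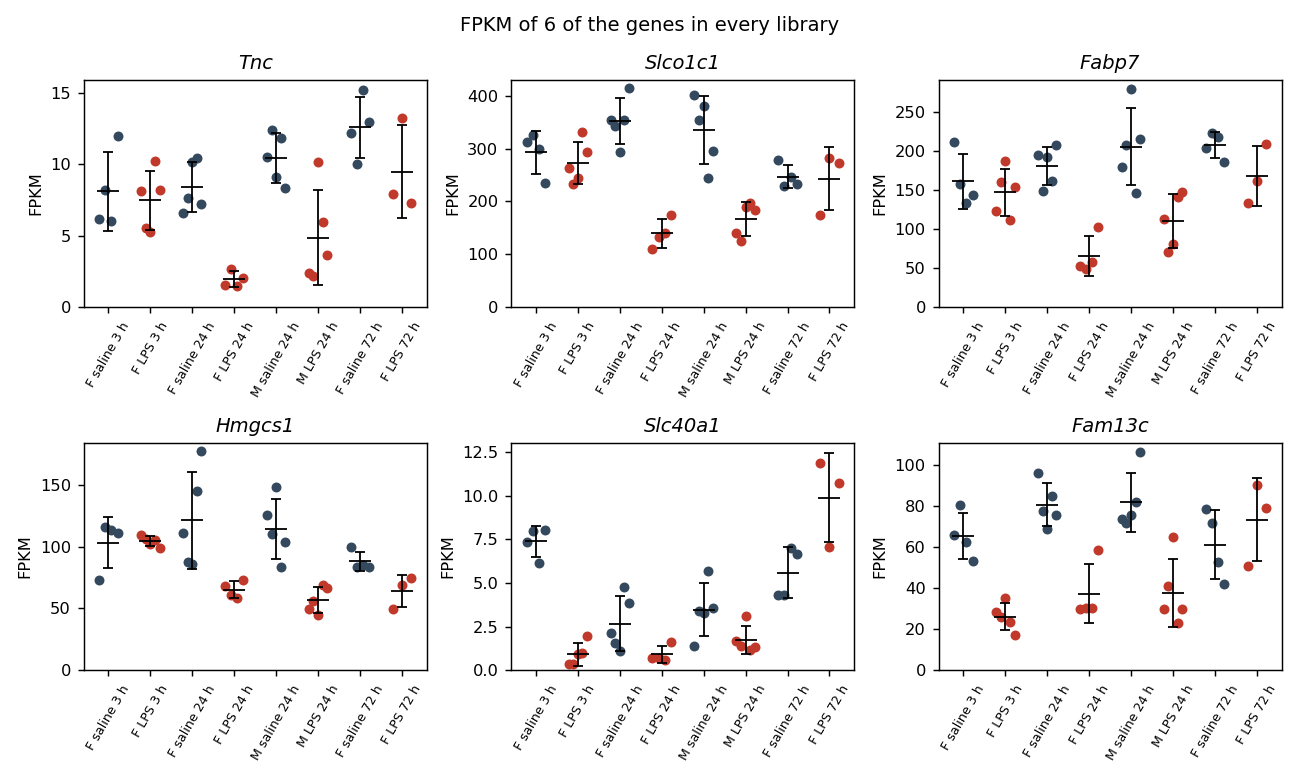
FPKM of Tnc, Slco1c1, Fabp7, Hmgcs1, Slc40a1 and Fam13c in every library (vertical axes from 0), by sex (F, M), treatment and time, with group means and SD as bars. Slco1c1 and Hmgcs1 have no overlap between LPS and saline libraries at 24 h, and Slc40a1 is at 0.35 to 1.94 FPKM after LPS at 3 h against 6.13 to 8.06 in saline.

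Sterol and lipid genes numbered 10. Hmgcs1, a synthase of the mevalonate pathway (chromosome 13, 119690379 to 119708260), was at 83.1, 110 and 177 FPKM (lowest, median, highest) in 24 h saline libraries and 44.7, 61.0 and 73.3 FPKM after LPS. The groups did not overlap. The sterol oxidase Msmo1 and the last-step reductase Dhcr7 were lower by 0.72 each. At 3 h these 3 genes had log2 fold changes from -0.03 to 0.45, and at 72 h from -0.75 to -0.47, with no call. Of the 18 genes of the cholesterol synthesis list outside the 288, 12 were lower at 24 h, and their median was -0.29. No gene of the list, 22 tested, passed the test at 3 h or 72 h in either direction. Its median log2 fold change was 0.09 at 3 h and -0.53 at 72 h, against 0.02 and -0.10 over all genes tested.

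The promoter of Hmgcs1 (RefSeq, GRCm38.p6, chr13:119690101-119690400, plus strand) is shown because it was the only promoter among those matched for the list that held the sterol element TCACNCCAC, a motif added after the data were seen. The element is in capitals and begins at 119690214, before the RefSeq start at 119690351, which differs from the GENCODE gene start given above.
Hmgcs1: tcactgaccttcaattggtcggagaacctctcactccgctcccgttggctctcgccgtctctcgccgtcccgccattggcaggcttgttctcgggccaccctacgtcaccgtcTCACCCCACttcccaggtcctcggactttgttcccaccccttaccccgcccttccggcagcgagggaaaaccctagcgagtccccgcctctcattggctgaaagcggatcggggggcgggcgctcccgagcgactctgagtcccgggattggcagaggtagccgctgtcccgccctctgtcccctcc
In 208 of the 288 genes with a promoter of 300 bases, 2.40% held this element on either strand, against 1.08% of 7384 promoters of genes at the saline level used and 1.22% of all 27025. CCAAT, the CCAAT box, was present in 50.5% of the 208, against 39.4% and 37.9%. The motif TGACGTCA, the cAMP-response element, was present in 6.25%, against 3.67% and 1.88%. A match says that these letters are in the window and no more.

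Fabp7, the brain fatty acid binding protein of radial glia and astrocytes, was at 146, 193 and 278 FPKM in 24 h saline libraries and at 48.3, 81.1 and 147 FPKM after LPS. The highest LPS library slightly exceeded the lowest saline library. Abcd2, a peroxisomal transporter of very long chain fatty acids, was at 42.0 to 69.3 FPKM in saline and 21.8 to 33.9 after LPS, without overlap. Pnpla3, a lipid droplet hydrolase, was lower by 0.86 at 24 h, and at 72 h it was at 8.55, 7.42, 17.1 and 19.2 FPKM in saline and 3.52, 3.44 and 5.02 FPKM after LPS. Those groups did not overlap, yet the difference did not pass the test (-1.41 ± 0.44 SE, limma adjusted p = 0.473). Ugt8a, the galactolipid synthase that marks oligodendrocytes, was at 0.96 to 12.6 FPKM in 24 h saline libraries and 0.16 to 3.20 after LPS, and was the 1 oligodendrocyte marker of 12 among the 288. The median 24 h difference of the other markers was -0.08.

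Both genes of thyroid hormone supply in the set were without overlap at 24 h. Slco1c1, the transporter that takes up T4 (chromosome 6, 141524368 to 141570177), was at 245, 354 and 414 FPKM in saline and 110, 141 and 197 FPKM after LPS. Dio2, the deiodinase that turns T4 into T3 (chromosome 12, 90724552 to 90738438), was at 44.6, 56.2 and 64.4 FPKM in saline and 16.1, 27.1 and 39.9 FPKM after LPS. At 3 h their log2 fold changes were -0.10 ± 0.19 and -0.06 ± 0.23 SE, with limma adjusted p = 0.866 and 0.94. At 72 h they were -0.05 ± 0.22 and 0.64 ± 0.27, also without a call.

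Receptors and receptor-linked proteins numbered 10. Gas1, a co-receptor of hedgehog ligands, was at 47.5, 69.6 and 108 FPKM in 24 h saline libraries and 28.1, 30.6 and 44.5 FPKM after LPS, without overlap. Lgr4, a receptor for R-spondins in Wnt signalling, was at 15.2, 51.8 and 76.4 FPKM in saline and 10.1, 18.5 and 26.8 after LPS. Ednrb, the endothelin B receptor, was at 139, 174 and 268 FPKM in saline and 82.9, 102 and 148 after LPS. The prostaglandin receptor Ptger4 and the cannabinoid receptor Cnr1 were lower by 0.90 and 0.73. Gas1, Lgr4 and Ednrb were the single genes of the hedgehog (9 tested), Wnt (25) and neurotransmitter receptor (28) lists among the 288, and the 24 h medians of the other genes of those lists were 0.34, 0.06 and 0.03. Slitrk2 was the single one of 47 adhesion and guidance genes and Cdkn1b, a cell cycle inhibitor, of 23 cell cycle genes, where the others had 24 h medians of -0.14 and 0.17.

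The 47 genes with Zfp symbols formed the largest role group. C2H2 zinc finger proteins bind DNA through tandem fingers, and many of them repress transposable elements. They made up 16.3% of the 288 genes and 2.10% of the genes at the saline level used, and 18 lay on chromosome 17 and 11 on chromosome 13. Such genes repeat a finger of 28 codons, which starts with a conserved linker. A single repeat from each of 3 of them is shown 5′ to 3′, with the linker in capitals, to let their likeness be seen. They were read from the longest open reading frame of the GENCODE M21 transcripts.
Zfp758: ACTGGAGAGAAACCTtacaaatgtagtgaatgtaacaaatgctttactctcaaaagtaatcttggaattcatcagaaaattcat
Zfp943: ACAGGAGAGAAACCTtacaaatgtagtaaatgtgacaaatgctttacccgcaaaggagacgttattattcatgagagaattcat
Zfp85: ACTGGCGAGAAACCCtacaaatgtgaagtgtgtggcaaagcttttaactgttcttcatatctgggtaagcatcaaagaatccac
Zfp758 and Zfp943, both on chromosome 17, matched at 69 of 84 bases, and Zfp85, on chromosome 13, matched them at 52 and 51. In 36 of 46 of these genes with a reading frame there were at least 5 such linkers (78.3%), against 73 of 194 Zfp genes outside the 288 (37.6%), and the median number of fingers was 12 against 9. Their median transcript G + C content was 38.5% against 46.3%. The genes outside the 288 were taken by symbol, and some of them, such as Zfp36, Zfp36l1 and Zfp36l2, had no such finger, which lowers that side of the comparison.

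Zfp758 was at 6.25, 8.49 and 22.3 FPKM in 24 h saline libraries and 1.59, 3.45 and 8.06 after LPS. The median 24 h difference over the 47 was -0.88, at -0.66 in females and -1.07 in males, and in none of them were the LPS and saline libraries apart. After scaling within G + C bins, which raises genes of low G + C content, the median was -0.53 and 6 of 47 stayed at least 0.7 lower. Without the libraries of low mitochondrial share 2 of 47 did. Nothing is read from these counts, since the same libraries chose the genes. At 72 h the saline replicates 3 and 4, of low mitochondrial share, had 1.93 and 2.01 FPKM of Zfp758 against 10.1 and 17.2 in the other saline libraries. FPKM of these paralogs is uncertain, since the authors' counting could have split reads among them, which was not tested.

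RNA-binding and splicing factors numbered 19. Srsf3, a serine- and arginine-rich splicing factor (chromosome 17, 29032628 to 29043373), was at 58.4, 67.5 and 85.0 FPKM in 24 h saline libraries and 17.3, 24.1 and 46.5 after LPS, without overlap. Tra2a, another splicing regulator, was at 17.4, 70.2 and 91.2 FPKM in saline and 20.7, 30.5 and 43.0 after LPS, with overlap at the low end. The median over the group was -0.91 at 24 h, and 8 of 19 genes stayed at least 0.7 lower after scaling within G + C bins. Of 16 chromatin and transcription regulators, such as the remodeller Atrx and the histone demethylase Kdm6a, 3 did so. Of 12 ubiquitin and SUMO system genes, 3 did so. Since the same libraries chose the genes, nothing is read from these counts either. Dclk1, a microtubule-associated kinase and the highest of 11 cytoskeleton regulators, was at 252, 454 and 652 FPKM in saline and 94.3, 177 and 248 after LPS. Its 72 h saline replicates 3 and 4 were at 206 and 170 FPKM, within the 24 h LPS range.

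**Figure D4:**
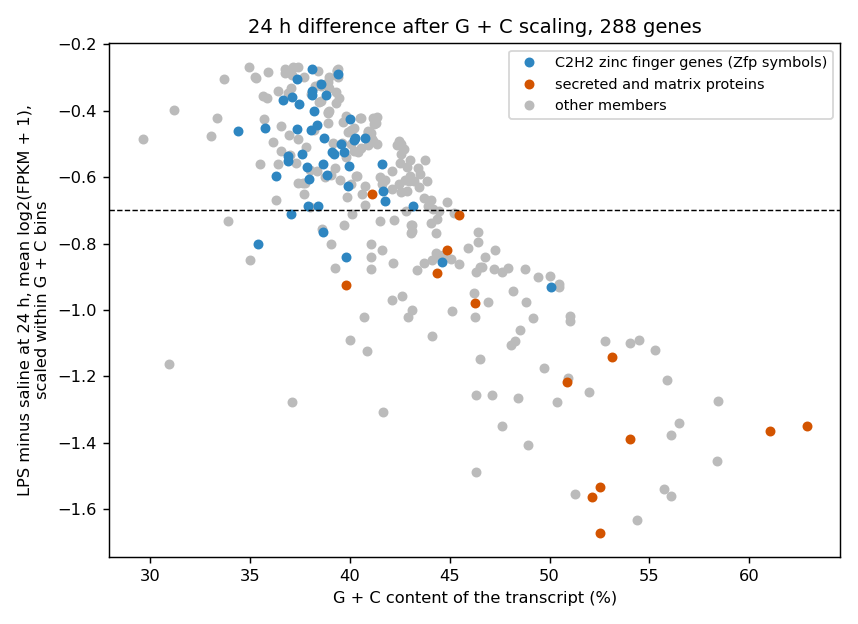
Difference between LPS and saline at 24 h after scaling each library within G + C bins (vertical axis, log2) against the G + C content of the transcript in percent (horizontal axis), 1 point per gene; the dashed line is at -0.7. Zfp genes (blue) mostly lie above the line, where 6 of 47 are below it. Of 14 genes for secreted and matrix proteins (orange), 13 lie below it. The upper edge of the points follows from the threshold of the choice and the shift of each bin. That shift lowers genes of high G + C content and raises those of low content.

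The largest falls at 24 h were those of Gt(ROSA)26Sor, a non-coding transcript of the Rosa26 locus, at -1.71, of Mir5117 at -1.60 and of Itm2a at -1.52. Gt(ROSA)26Sor was at 79.7, 110 and 229 FPKM in saline and 7.55, 35.8 and 100 after LPS. Mir5117 is a precursor locus of 84 bases, and its FPKM ran from 12.8 to 66.7 in saline and from 0.004 to 68.4 after LPS, so the groups overlapped throughout. In the 16 libraries of 3 h and 72 h, after group means were removed, the genes among the 288 most like Gt(ROSA)26Sor were Luzp2, Dnajb9 and Ppp1cb (Pearson r from 0.944 to 0.948), and the gene most like Itm2a was Gnai1 (0.836). The gene most like Mir5117 was Orc4 (0.949). These points share library composition, and the correlations are a description.

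Further large falls were those of the vesicle adaptor subunit Ap3s1 (-1.41), the mitochondrial carrier Slc25a36 (-1.31), the translation regulator Cpeb4 (-1.31), the fucosyltransferase Fut9 (-1.29), Nudt10 (-1.26), the histone H4 gene Hist1h4j (-1.25) and Ugp2, which makes UDP-glucose (-1.24). Cpeb4 was at 8.22, 40.9 and 54.8 FPKM (lowest, median, highest) in saline and 6.59, 12.3 and 20.6 after LPS. Ugp2 was at 160, 240 and 354 FPKM in saline and 69.6, 95.8 and 173 after LPS. For both, only the lowest saline libraries reached the LPS range.

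The 3 h libraries, which the choice did not use, show whether the same genes were lower early after LPS. Of the 288 genes, 5 fell (1.74%), against 0.443% of 19426 genes tested that were lower at an adjusted p under 0.05 by limma. None rose, against 1.94% of all genes. At an unadjusted p under 0.05 by limma, 32 were lower and none was higher, against 5.48% and 6.54% of all genes. At 3 h the authors' deposited table called 9 of the 288 lower, the same 5 with Fezf2, Gas1, Itm2a and Zfp931, and 0 higher, against 0.821% and 2.61% of the 18763 genes with an adjusted p there. With array weights, which count libraries unequally, limma called 13 lower and 1 higher, against 2.02% and 4.17% of all genes. Of the 288, 240 were negative (83.3%), against 48.0% of all genes. The median log2 fold change of the 288 was -0.31, against a median of 0.02 over all genes. That median was -0.03 after scaling within G + C bins and -0.04 without the libraries of low mitochondrial share, LPS replicates 4 and 5, while the 5 genes remained called in both. Nearest to no change at 3 h were Msantd4, Uba6, Tmem55a, Zfp938, Fau-ps2 and Msmo1, between -0.03 and 0.01.

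Slc40a1, ferroportin, the cellular iron exporter (chromosome 1, 45908068 to 45926523), changed most. It was at 7.38, 7.99, 6.13 and 8.06 FPKM in saline and 0.354, 0.35, 0.915, 1.02 and 1.94 FPKM in LPS libraries at 3 h. Every LPS library was far below every saline library (-2.19 ± 0.29 SE, limma adjusted p = 2.32e-06). Slc30a10, a manganese exporter, was at 23.7, 20.6, 22.4 and 19.9 FPKM in saline and 9.71, 11.3, 10.4, 12.7 and 13.7 after LPS (-0.86 ± 0.18 SE, limma adjusted p = 0.00392). The groups were apart for this gene as well. Both are among the 7 transporters of the set. At 24 h Slc40a1 was at 1.09 to 5.71 FPKM in saline and 0.598 to 3.08 after LPS, with overlap.

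Itm2a was at 117, 107, 85.6 and 66.3 FPKM in saline and 38.4, 44.1, 45.2, 21.4 and 27.4 after LPS at 3 h. The groups were apart, but limma gave no call (-1.41 ± 0.49 SE, adjusted p = 0.154). Itm2a was called lower in the limma fits with the replicate number as a block (adjusted p = 0.0175), with the libraries of 3 h alone (adjusted p = 0.0165) and with array weights (adjusted p = 0.038).

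Fam13c was at 65.9, 80.5, 62.7 and 53.1 FPKM in saline and 28.5, 26.2, 35.2, 23.6 and 17 after LPS (-1.32 ± 0.25 SE, limma adjusted p = 0.000925). Hist1h4c, a replication-dependent histone H4 gene, was at 9.0, 5.04, 7.76 and 6.10 FPKM in saline and 2.07, 0.979, 1.61, 2.21 and 4.29 after LPS (-1.35 ± 0.31 SE, limma adjusted p = 0.00669). Ddit4l, an inhibitor of mTORC1 signalling, was at 25, 23.9, 23.7 and 26 FPKM in saline and 11.1, 13.5, 13.8, 14.2 and 16.4 after LPS (-0.80 ± 0.20 SE, limma adjusted p = 0.018). None of the 3 genes overlapped between groups. The calls came from these same libraries, so the lack of overlap in the 5 called genes is a description and adds nothing to the test. Hist1h4c has near-identical histone copies, so its FPKM is uncertain. The call of Ddit4l ended when saline replicate 1 (adjusted p = 0.0567) or LPS replicate 1 (adjusted p = 0.0724) was left out, and under the replicate block (limma adjusted p = 0.108).

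Markers of other cells moved at 3 h too. Of 15 endothelial markers, 5 were lower by the same test and 0 higher, and their sum was 235.9 to 354.5 FPKM in saline and 160.0 to 211.9 after LPS. Of 19 microglial markers, 2 were lower, with sums of 299.7 to 522.8 and 189.1 to 361.2 FPKM, and of 5 border macrophage markers, 1 was lower. No endothelial, microglial or border macrophage marker was at 0 in every library of either group. Their part in the 3 h falls was not tested.

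At 72 h no gene of the 288 was lower, against 0.0% of all genes tested, and none was higher, against 0.0772%. At an unadjusted p under 0.05 by limma, 7 were lower and 11 higher, against 3.09% and 2.3% of all genes. With array weights 9 were called lower (3.12%) and 94 higher (32.6%), against 13.5% and 5.13% of all genes. The authors' deposited table called 0 of the 288 lower and 1 higher at 72 h, against 0.027% and 0.723% of the 18532 genes with an adjusted p there. This was Itm2a, an integral membrane protein, with a log2 fold change of 0.99 and an adjusted p of 0.00127 in the authors' deposited table. The median log2 fold change of the 288 was 0.27, with 214 positive (74.3%), against -0.10 over all genes, with 37.7% positive. After scaling within G + C bins that median was 0.15, with 186 positive, and after scaling by library medians it was 0.37, with 231 positive. Without saline replicates 3 and 4, whose mitochondrial shares were under 10%, it was -0.14, with 78 positive. The direction thus turned when those libraries were left out, which left 2 saline libraries. The largest rises by value were those of Triqk (1.24), AC102628.1 (1.23), Snord14c (1.14), Gt(ROSA)26Sor (1.07), Zfp758 (1.06) and Myoc (1.04), none of which passed the test.

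Markers of other cells also differed at 72 h. The 19 microglial markers summed to 335.1 to 717.3 FPKM in saline and 819.8 to 1372.5 after LPS, and 3 blood leukocyte markers to 0.7 to 1.7 and 5.0 to 30.5 FPKM, so both sums were apart. By limma 0 of the 19 and 1 of the 3 were called higher. No microglial marker was at 0 in every library of either group, and the leukocyte markers S100a8 and S100a9 were at 0 in every saline library. Their part in the 72 h values was not tested.

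**Figure D5:**
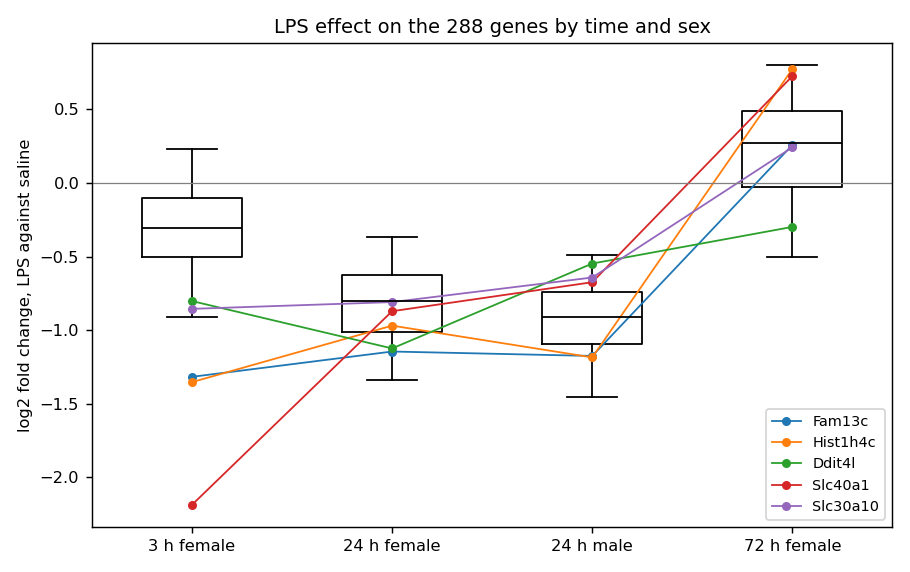
Log2 fold change of LPS against saline (vertical axis) for the 288 genes at 3 h, at 24 h in each sex and at 72 h; boxes give the median and quartiles, whiskers the 5th to 95th percentiles, and lines follow the 5 genes called at 3 h. The box medians are -0.31, -0.80, -0.91 and 0.27, and Slc40a1 runs from -2.19 at 3 h to 0.73 at 72 h.

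The LPS effect itself was compared between 72 h and 3 h. It was higher at 72 h in 3 of the 288 genes (1.04%), against 0.185% of all genes, and lower in none, against 0.577%. The 3 genes were Slc40a1 (2.91 ± 0.44 SE, limma adjusted p = 9.48e-05), Hist1h4c (2.13 ± 0.46 SE, adjusted p = 0.0139) and Fam13c (1.58 ± 0.38 SE, adjusted p = 0.0368). Slc40a1 was at 4.32, 4.32, 7.02 and 6.67 FPKM in saline and 11.9, 7.07 and 10.7 FPKM after LPS at 72 h, where every LPS library was above every saline library, though without a call (0.73 ± 0.33 SE, adjusted p = 0.88). Without the libraries of low mitochondrial share, LPS replicates 4 and 5 of 3 h and saline replicates 3 and 4 of 72 h, Fam13c had a difference of 1.02 and no call (limma adjusted p = 0.377). Its call also ended with median scaling (adjusted p = 0.0582), a pseudocount of 0.1 (adjusted p = 0.0533), the libraries of 3 h and 72 h alone (adjusted p = 0.0733) and the replicate block (adjusted p = 0.329). Leaving out 1 library at a time ended the call of Fam13c in 10 of 16 cases (adjusted p = 0.0536 to 0.152) and that of Hist1h4c without LPS replicate 2 of 72 h (adjusted p = 0.0729), where Slc40a1 alone was called. At an unadjusted p under 0.05 by limma, the effect was lower at 72 h in 5 and higher in 33 of the 288, against 6.53% and 3.78% of all genes. With array weights 7 were called lower and 131 higher, against 18.9% and 7.57%. Itm2a, at 2.41 without a call (adjusted p = 0.157), was called there and in the fits with the replicate block (adjusted p = 0.012) and the libraries of 3 h and 72 h alone (adjusted p = 0.00217). Saline libraries of 72 h and 3 h differed in none of the 288, against 0.0% of all genes by limma. At an unadjusted p under 0.05, 14 were lower at 72 h and 8 higher, against 2.2% and 8.91%, and array weights called 145 lower and 13 higher, against 9.66% and 34.8%. Their median difference was -0.29, and it was 0.13 without saline replicates 3 and 4 of 72 h. Scaling by library medians moved the median of all genes by more than 0.1 here, from 0.15 to 0.02, and in the LPS effect between 72 h and 3 h, from -0.12 to -0.01.

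The sexes were compared at 24 h. No gene of the 288 had an LPS effect that differed between females and males, against 0.0% of all genes, with 8 lower and 6 higher in females at an unadjusted p under 0.05 by limma, against 2.89% and 1.09%. Apln had effects of -1.81 in females and -0.73 in males, a difference of -1.09 ± 0.36 SE that did not pass (adjusted p = 0.945). In saline none differed, against 0.0515% of all genes, with 2 lower and 5 higher in females at an unadjusted p under 0.05, against 1.43% and 0.968%. After LPS none differed, against 0.0721% of all genes, with 13 lower and 15 higher unadjusted, against 7.13% and 1.84%. Array weights called 2 lower in females after LPS, Fabp7 and Nrep, and 0 higher, against 0.911% and 0.252% of all genes. In saline the authors' deposited table called 0 of the 288, against 0.0471% lower and 0.0261% higher in females among all genes with an adjusted p there. After LPS it called 0 lower and 1 higher, against 0.843% and 0.196%. This was Zfp62, in the authors' deposited table higher in females with a log2 fold change of 1.24 and an adjusted p of 0.0436. A missed threshold does not show that the sexes respond alike. Scaling by library medians moved the median of all genes in the male 24 h contrast from 0.18 to 0.06. The deposited numbers came in single and double precision, and the 288 genes had median 24 h differences of -0.90 in the single-precision libraries (5 LPS, 6 saline) and -0.81 in the double-precision ones (4 and 4).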

How the data were processed

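FPKM per gene and library were deposited by the authors, with HISAT2, StringTie and mm10 named in the submitters' processing notes without versions. The deposited table also holds the authors' log2 fold changes and adjusted p-values, made with DESeq2 per the same notes. It had 19584 entries, 11 of them repeated identifiers, of which the first was kept. All 288 genes were found in GENCODE M21 (GRCm38).

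Here limma 3.58.1 (R 4.3.3, intensity trend, two-sided) estimated a mean for each of the 8 groups from log2(FPKM + 1) in the 35 libraries, for the 19426 genes with at least 1 FPKM in at least 3 libraries. Adjusted p-values are Benjamini-Hochberg values over all of these genes, and a gene is called under 0.05. The scripts were tested on simulated data. The genes, the lists and the role groups were chosen with earlier results of these data known. Named genes are the 20 with the largest falls, the called genes, members of the gene lists, the 10 highest in saline, those nearest the threshold and those with the largest rise at 72 h or least change at 3 h. Others were chosen after their values were seen. A fold change on log2(FPKM + 1) understates the change of low genes. Alternatives were another pseudocount, filter, scaling and weighting, the replicate block and leaving out libraries. Some items are not reported here.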

Additional observations from a re-analysis of the deposited data

Results flagged for a closer look

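Of 112 groups of 4 or 5 libraries examined for 1 library standing apart, over the mean level of the 288 genes and 15 of the genes described, 8 did. Chance gives about 1 in 20 for independent groups. These groups share libraries and are not independent, so the count is a description. In female LPS libraries at 24 h, replicate 4 stood apart for Slc40a1, at 1.63 FPKM against 0.599 to 0.714, and for Fam13c, at 58.8 FPKM against 30.1 to 30.3. Its mitochondrial share was 17.3%, the highest of that group. In male LPS libraries at 24 h, Slc40a1 stood apart in replicate 3 at 3.08 FPKM and Malat1 in replicate 2 at 5471 FPKM. Zfp758 stood apart in female saline replicate 4 at 22.3 FPKM and in male saline replicate 5 at 17.2 FPKM. Hmgcs1 stood apart in saline replicate 1 at 3 h, the lowest of its group at 72.6 FPKM, and in saline replicate 1 at 72 h, the highest at 99.9 FPKM.

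The LPS effect differed between 72 h and 3 h, by limma's test of the difference, in Slc40a1 by 2.91, in Hist1h4c by 2.13 and in Fam13c by 1.58 (log2).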

How the results depend on the processing

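With array weights in limma, which count libraries unequally, calls among the 288 genes rose to 13 lower and 1 higher at 3 h. The shares of all genes were 2.02% and 4.17%. At 72 h there were 9 lower and 94 higher, against 13.5% and 5.13% of all genes. The LPS effect at 72 h against 3 h had 138 calls, 7 lower and 131 higher, against 18.9% and 7.57% of all genes. Saline at 72 h against 3 h had 158, 145 lower and 13 higher, against 9.66% and 34.8% of all genes. The sexes after LPS had 2, lower in females, against 0.911% lower and 0.252% higher of all genes. The cause of these rises was not tested. Scaling within G + C bins gave 1 call between the saline times (Dio2). Without the libraries of low mitochondrial share there was 1 call between the sexes after LPS (Col11a2), and the 72 h median turned to -0.14. The rule gave 498 genes after median scaling, 462 in males only, 109 without those libraries and 261 after scaling within G + C bins, which include 288, 232, 77 and 114 of the 288. It gave 235 to 408 genes with 1 library left out.

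With 1 library left out, 4 to 6 genes were lower at 3 h and 1 to 4 differed between 72 h and 3 h, with 0 in each other count. The 3 h median ran from -0.39 to -0.19, where it was smallest without LPS replicate 5, and the 72 h median from 0.12, without saline replicate 4, to 0.46, without LPS replicate 1. The fit with the replicate number as a block gave 5 lower genes at 3 h, against 0.335% of all genes. In that fit the LPS effect was higher at 72 h than at 3 h in 3, against 0.257%, and lower in 0, against 0.484%. Ddit4l (-0.86) and Fam13c (1.27) lost their calls there, and Itm2a (-1.34 and 2.43) gained both. Deviations of same-numbered libraries from their group means correlated from -0.52 to 0.47. In groups this small, whose libraries also differ in composition, these values neither show nor exclude a pairing by number. Of 42 named genes, 22 kept their sign at 3 h and 24 at 72 h under all alternatives. The depth in reads is unknown, so no counting error is given.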
